A study of Homo sapiens with 12 samples.

Results

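Long noncoding RNAs are transcripts that are spliced and polyadenylated like messenger RNA but are not translated, or are translated only into very small peptides. Their systematic names carry their position: a gene named LINC followed by digits lies between coding genes, and a gene named with the suffix -AS lies on the strand opposite to the gene that its symbol names first. Such RNAs are often made in only a few cell types, and some are known from pigment cells, where they lie next to MITF, the gene of the transcription factor that drives the melanocyte lineage, or serve in melanoma diagnosis. The analysis here covers the 381 genes of the table whose symbol starts with LINC and digits (134 genes) or ends in -AS, -AS1, -AS2 or -AS3 (247 genes), out of 12616 listed genes. They were picked by name, among genes that had passed the filter of the table (a value of 1 in 3 or more libraries).

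MeWo and SkMel28 are human cutaneous melanoma cell lines. All 12 cultures carried a hairpin against MITF that is switched on by doxycycline (Dox), and the groups were MeWo control, MeWo Dox, SkMel28 control and SkMel28 Dox, with 3 libraries each. Control cultures were given 0 and Dox cultures 1 µg/ml for 8 days, and the labels put MeWo in EMEM and SkMel28 in RPMI, so that line and medium cannot be told apart. No culture with Dox but without the hairpin was analysed here, and hairpin and drug therefore cannot be told apart either. The 9 melanocytic markers checked (MITF, MLANA, PMEL, TYR, TYRP1, DCT, SOX10, S100B and MIA) were all listed, whereas 0 of 4 keratinocyte and 0 of 3 endothelial markers were. Of 6 fibroblast markers DCN and LUM were listed, and of 4 leukocyte markers CD68 was. Nothing states that the 3 libraries of a group came from separate platings, and p-values then measure only the spread between these libraries.

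Reads were taken at the 3′ ends of transcripts. Libraries held 2568187 to 3714608 reads, and a read was worth 0.278 to 0.389 of the normalised counts per 1000000 (CPM) given below. The MeWo Dox libraries resembled each other less than those of the other groups, and over the 381 genes their pairwise correlation was 0.919 to 0.942, against 0.940 to 0.957 elsewhere. Replicate 1 stood on its own for several genes described below, and the main counts without it are given below. Changes are differences of log2(CPM + 1), and a gene was called where limma gave an adjusted p under 0.05 over all 12616 genes. MITF itself, the target of the hairpin, had means of 676 in MeWo control and 392 in MeWo Dox, and of 797 and 568 in SkMel28, and it was called in both lines.

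Positions were taken from GENCODE release 44 on hg38, which gave a single locus for 361 of the 381 genes. Of these 338 are annotated as long noncoding RNA, 16 as protein coding under a newer name and 7 as pseudogenes. LINC01212 is now SAMMSON, LINC00657 is NORAD, LINC01272 is PELATON and LRRC75A-AS1 is SNHG29. In all 188 of the genes overlap another listed gene on the opposite strand, and 138 start within 1000 bases of an opposite-strand start. The strand used for counting is not stated, and reads from stretches where opposite-strand genes overlap cannot be told apart.

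Promoter windows of RefSeq (GRCh38.p14), 250 bases before to 50 bases after the start, were found for 285 of the genes, in 342 windows. MITF binds E-boxes, and 2 forms were searched on both strands. The palindrome CACGTG was in 10.2% of the members' windows, 9.6% of the windows of all listed genes and 7.26% of all RefSeq windows. CATGTG was in 6.73%, 7.61% and 11.1%. Of the genes with a window, CATGTG was found in 4 of 19 that fell in MeWo (LINC01443, LINC00906, LINC01473 and LINC01270), in 2 of 16 that rose there and in 17 of 250 that were not called. CACGTG was found in 1 of 19, 0 of 16 and 30 of 250 of the same genes. In SkMel28 CATGTG was in 0 of 10 genes that rose, 0 of 9 that fell and 23 of 266 not called. CACGTG was there in 2 of 10 (LINC00657 and SLCO4A1-AS1), 2 of 9 (LINC00282 and OIP5-AS1) and 27 of 266. A match describes letters in the window and not a bound site. The 4 windows below are examples picked among called members with an E-box in the window, and capitals mark the E-box.
LINC00657 (NORAD), chr20:36050911-36051210, minus strand: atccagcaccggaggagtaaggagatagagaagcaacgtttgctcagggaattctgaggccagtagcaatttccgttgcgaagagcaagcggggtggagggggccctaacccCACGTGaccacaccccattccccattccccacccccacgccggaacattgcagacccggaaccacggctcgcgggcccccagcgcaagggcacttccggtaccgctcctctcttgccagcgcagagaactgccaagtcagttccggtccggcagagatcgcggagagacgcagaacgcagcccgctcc
SLCO4A1-AS1, chr20:62666572-62666871, minus strand: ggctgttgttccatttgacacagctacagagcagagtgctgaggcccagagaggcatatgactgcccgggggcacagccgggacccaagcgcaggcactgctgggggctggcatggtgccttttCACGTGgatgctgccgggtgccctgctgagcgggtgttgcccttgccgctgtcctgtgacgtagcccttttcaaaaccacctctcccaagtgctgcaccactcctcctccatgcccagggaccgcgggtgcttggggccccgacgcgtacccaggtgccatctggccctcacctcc
LINC01270, chr20:50292470-50292769, plus strand: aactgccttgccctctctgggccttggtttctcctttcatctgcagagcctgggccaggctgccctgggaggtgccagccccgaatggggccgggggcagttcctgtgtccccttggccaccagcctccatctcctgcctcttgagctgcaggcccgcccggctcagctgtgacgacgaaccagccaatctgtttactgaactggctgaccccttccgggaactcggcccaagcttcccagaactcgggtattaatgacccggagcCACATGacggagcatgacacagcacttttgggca
LINC00906, chr19:28964881-28965180, plus strand: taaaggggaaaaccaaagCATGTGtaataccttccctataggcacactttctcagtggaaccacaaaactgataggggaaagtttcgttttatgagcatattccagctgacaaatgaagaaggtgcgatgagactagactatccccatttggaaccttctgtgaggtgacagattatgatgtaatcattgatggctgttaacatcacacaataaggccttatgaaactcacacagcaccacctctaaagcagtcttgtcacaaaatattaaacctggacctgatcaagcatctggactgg

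In LINC00657 and SLCO4A1-AS1 the CACGTG lies 138 and 126 bases before the start. In LINC01270 the CATGTG lies within the transcript, at base 17 on the reverse strand. In LINC00906 it lies 232 bases before a RefSeq start that falls inside the GENCODE span of the gene.

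The genes were mostly weak in these libraries. Their median level was 3.01 CPM, compared with 18.1 over all listed genes, and 65.1% had a mean under 5, compared with 23.4% of all listed genes. A read was found for 335 to 360 of them per library, and 242 had a read in all 12. Only 5 had a mean over 100. LRRC75A-AS1 alone held 60.5% of the members' reads in MeWo control, 61.1% in MeWo Dox, 46.0% in SkMel28 control and 44.3% in SkMel28 Dox. This gene hosts small nucleolar RNAs and its 3 libraries per group stood at 6090.2, 5776.6 and 5990.8 in MeWo control, 5002.4, 5278.8 and 6127.7 in MeWo Dox, 3121.7, 3462.3 and 3475.2 in SkMel28 control and 3131.2, 3298.1 and 3432.5 in SkMel28 Dox. It was lower in SkMel28 than in MeWo with and without Dox (log2 −0.73 and −0.83) and was not called with Dox in either line.

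Together the genes took 1.02% of gene reads in MeWo control and 0.898% in MeWo Dox, where the highest library (0.955%) lay under the lowest control (1.01%). In SkMel28 they took 0.816% in control and 0.862% in Dox, and there the Dox libraries lay above the controls. Leaving out LRRC75A-AS1, the shares were 0.403% and 0.349% in MeWo and 0.441% and 0.481% in SkMel28. These are shares of reads and not tests of any gene.

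**Figure D1:**
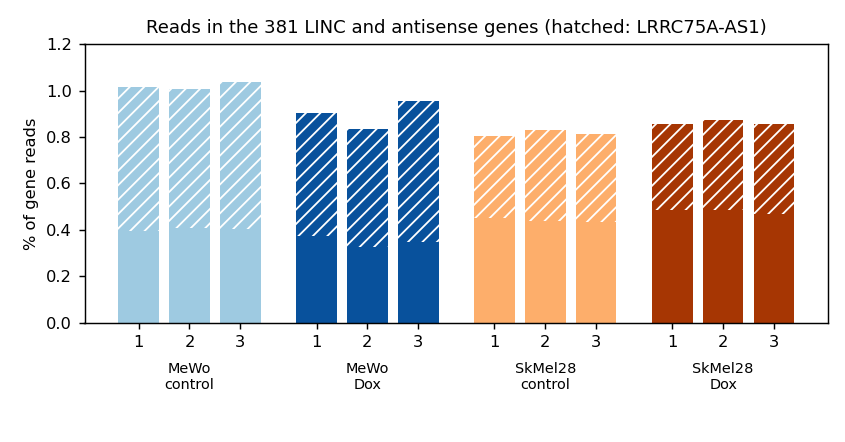
Percent of gene reads that fell in the 381 LINC and antisense genes, 1 bar per library, grouped by line and Dox. The hatched part is LRRC75A-AS1; the bars of MeWo control are the highest (1.01 to 1.04%), and the plain part is higher in SkMel28 (0.433 to 0.487%) than in MeWo (0.327 to 0.408%).

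In MeWo 53 of the 381 genes were called with Dox, of which 22 rose and 31 fell. That is 13.9% of them, and over all listed genes 16.7% were called in that comparison. In SkMel28 28 were called, 14 higher and 14 lower, which is 7.35% of the genes beside 10.9% of all listed genes. Taken over all levels, the share called was thus not above the background in either line, but the members are weaker than the listed genes as a whole. Among genes with a mean of at least 5 the share was 21.1% of 133 members in MeWo beside 18.9% of all such genes, and 9.02% beside 12.3% in SkMel28. Among genes with a mean under 5 it was 10.1% of 248 members beside 9.53% in MeWo, and 6.45% beside 6.54% in SkMel28. Within each level the MeWo share was thus slightly above that of all genes, and the SkMel28 share was not. The median change was −0.034 in MeWo and 0.021 in SkMel28, beside 0.000 and 0.003 over all listed genes.

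The LINC and antisense genes were also counted apart. Of the 134 LINC genes 6 were called higher and 23 lower there, and of the 247 antisense genes 16 were called higher and 8 lower. Over all listed genes 8.58% were called higher and 8.12% lower in MeWo. Leaving out 1 MeWo library moved these counts. The LINC genes ranged from 2 higher and 18 lower (without Dox replicate 3) to 6 and 24 (without Dox replicate 1). The antisense genes stood at 26 higher and 15 lower without Dox replicate 1, 9 and 7 without Dox replicate 2, and 7 and 3 without Dox replicate 3. Without control replicate 1, 2 or 3 they stood at 17 and 3, 8 and 5, and 8 and 6. With the MeWo groups fitted alone the counts were 4 and 16 for LINC and 6 and 4 for antisense. With edgeR on the recovered reads the LINC genes stood at 6 higher and 19 lower and the antisense genes at 16 and 6. Scaling to the spike-in RNAs, which moved the median of all genes by 0.224 in MeWo, gave 10 and 18 for LINC and 33 and 4 for antisense, so that the members together went from 22 higher and 31 lower to 43 and 22. In SkMel28 each class had 7 higher and 7 lower, and over all listed genes 5.88% were called higher and 5.04% lower. Scaling to the spike-ins gave 5 higher and 7 lower LINC genes and 1 higher and 6 lower antisense genes there. Leaving out 1 SkMel28 library gave between 4 antisense calls (1 higher and 3 lower, without Dox replicate 2) and 7, and between 11 and 13 LINC calls. Whether the classes differ from each other was not tested.

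**Figure D2:**
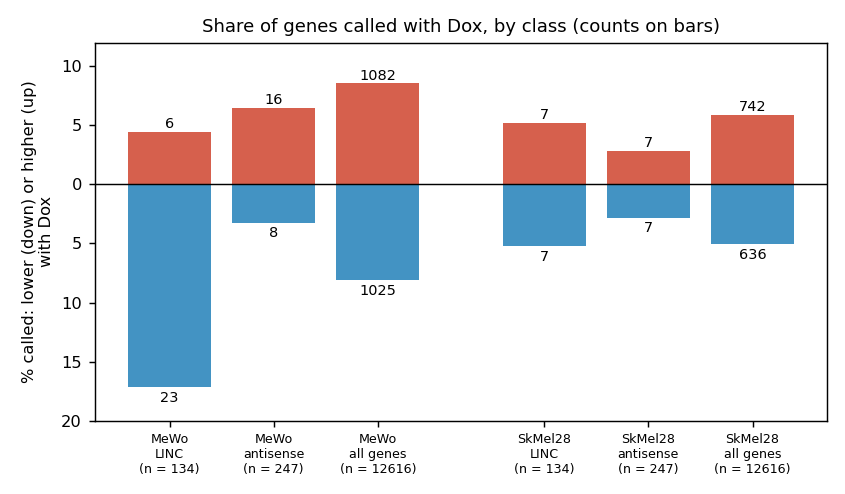
Percent of LINC genes, antisense genes and all listed genes called higher (up) or lower (down) with Dox in each line, with the counts on the bars. The lower share of LINC genes in MeWo (23 of 134) is the tallest bar; in SkMel28 the bars of the 2 classes hold 7 genes in each direction.

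Beside 16.7% of all listed genes in MeWo and 10.9% in SkMel28, 13.9% and 7.35% of the 381 genes were called with Dox. In all, 70 of the 381 were called in at least 1 line and 11 in both. Of these 11, 6 fell in both lines, 4 rose in both, and SLCO4A1-AS1 went in opposite directions. Over all listed genes 3.70% were called in both lines in the same direction and 0.38% in opposite directions.

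LINC00520 had the largest fall in MeWo among the called members and fell in SkMel28 as well. It is an intergenic gene (chromosome 14, 55781132 to 55796731, minus strand) that overlaps no other listed gene. In MeWo it stood at 222, 221 and 214 CPM in control and 46.9, 41.7 and 24.4 in Dox (219 ± 4.54 and 37.7 ± 11.8, SD, n = 3). In SkMel28 it stood at 279, 265 and 305 in control and 93.2, 100.9 and 92.2 in Dox (283 ± 20.3 and 95.4 ± 4.79). The groups did not overlap in either line. The log2 change was −2.56 (SE 0.17, limma adjusted p 2.3e-08) in MeWo and −1.56 (SE 0.17, adjusted p 1.3e-05) in SkMel28, and both calls held in every alternative. The interaction, which is the change in MeWo minus the change in SkMel28, was −1.0 (SE 0.24, adjusted p 0.020), and it was lost in 5 of 21 alternatives, spike-in scaling among them.

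LINC01272, also named PELATON and known as an RNA of monocytes and macrophages, lies on chromosome 20 (50247643 to 50283250, plus strand). It went from 22.5, 21.0 and 19.8 to 2.23, 4.17 and 2.37 in MeWo, and SkMel28 had 40.4, 34.6 and 47.1 without and 15.1, 23.1 and 14.2 with Dox. All Dox libraries lay below all controls of their line. Its log2 changes were −2.52 (SE 0.23, adjusted p 7.5e-07) and −1.20 (SE 0.23, adjusted p 0.0024) and were called in every alternative. The interaction was −1.33 (adjusted p 0.022), and it was lost in 6 of 21 alternatives, a pseudocount of 5 and spike-in scaling among them. Of the leukocyte markers PTPRC, CD3E and LYZ were not listed, and CD68 ranged from 132.5 to 151 in MeWo control, 57.45 to 147 in MeWo Dox, 78.2 to 100.9 in the SkMel28 controls, while the range was 18.7 to 23.0 with Dox. Whether other cells or these cells give the LINC01272 reads was not tested. In a bulk sample, fewer cells of a type and less RNA per cell cannot be told apart.

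LINC01270 begins 9458 bases beyond the end of LINC01272, on the same strand, and its promoter window is printed above. It stood at 14.1, 14.8 and 11.7 in MeWo control and at 5.75, 5.31 and 4.06 in MeWo Dox. The log2 change, −1.27 with an SE of 0.26 (adjusted p 0.0022), was not called at a pseudocount of 0.1. In SkMel28 all 6 libraries held 3 reads or fewer, so that no change could be measured there. The adjacent genes thus shared a direction in MeWo, while only LINC01272 was read above this floor in SkMel28.

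The other genes that fell in both lines were weaker. NNT-AS1, antisense to the gene of the mitochondrial transhydrogenase NNT, went from 83.6 ± 7.65 to 58.6 ± 2.75 in MeWo, and SkMel28 had 27.8 ± 2.13 without and 17.1 ± 1.5 with Dox (log2 −0.50 and −0.67). NNT fell in MeWo by the same amount (−0.50, adjusted p 0.019) while its change in SkMel28 was −0.17 (adjusted p 0.52). The last 400 bases of the NNT-AS1 transcripts share 31.2% of their 31-base words with transcripts of other genes, and the assignment of its reads is uncertain to that extent. TMEM51-AS1 and its partner TMEM51, which encodes a membrane protein, were both called lower in both lines. TMEM51-AS1 went from 2.66 ± 0.424 to 0.791 ± 0.47 in MeWo, and SkMel28 had 7.79 ± 1.76 without and 3.37 ± 1.43 with Dox, and TMEM51 changed by −0.38 and −0.67. The MeWo call of TMEM51 was lost in 17 of 22 alternatives, edgeR, DESeq2 and the replicate block among them, and the calls of TMEM51-AS1 were lost in 6 of 22 in MeWo and 7 of 22 in SkMel28. LINC00173 changed by −1.08 and −1.31, and with 0.459 ± 0.192 in MeWo Dox it lay at the floor there, at least 2.01-fold below control. LINC01013, whose span covers the matricellular gene CTGF on the other strand, dropped to the floor with Dox in both lines, at least 1.65-fold and 2.34-fold below control. Its call was lost in 7 of 21 alternatives in each line, edgeR and DESeq2 among them.

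The 4 genes that rose in both lines were LINC00511, LINC01314, LPP-AS2 and LINC00893. LINC00511, an RNA often studied as a growth-promoting transcript in tumours, stood at 29.4, 27.2 and 20.1 in MeWo control and 37.0, 39.4 and 37.9 in MeWo Dox. In SkMel28 it stood at 26.2, 24.1 and 25.3 in control and 49.6, 40.8 and 41.1 in Dox. Its levels were close between the lines, and the log2 changes were 0.58 (adjusted p 0.021) and 0.77 (adjusted p 0.0043). LINC01314 is annotated as the coding gene CTXND1 under its newer name, and it went from 9.80 ± 3.25 to 18.3 ± 2.78 in MeWo, and SkMel28 had 9.04 ± 2.62 without and 20.03 ± 1.85 with Dox. LPP-AS2 lies within LPP, which encodes a focal adhesion protein, and rose by 0.99 and 1.0, while LPP changed by −0.02 in MeWo and by 0.79, a called rise, in SkMel28. The calls of LPP-AS2 were lost in 6 of 22 alternatives in MeWo and in 11 of 22 in SkMel28, DESeq2 among them in both lines. LINC00893 had 0 reads in MeWo control, 1.04 ± 0.367 CPM in MeWo Dox, 0.957 ± 0.273 in SkMel28 control and 2.48 ± 0.487 in SkMel28 Dox. The means in MeWo Dox and SkMel28 control lay near the floor of 3 reads. LINC00893 shares 58.6% of its terminal 31-base words with copies elsewhere, and its SkMel28 call was lost in 15 of 21 alternatives.

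**Figure D3:**
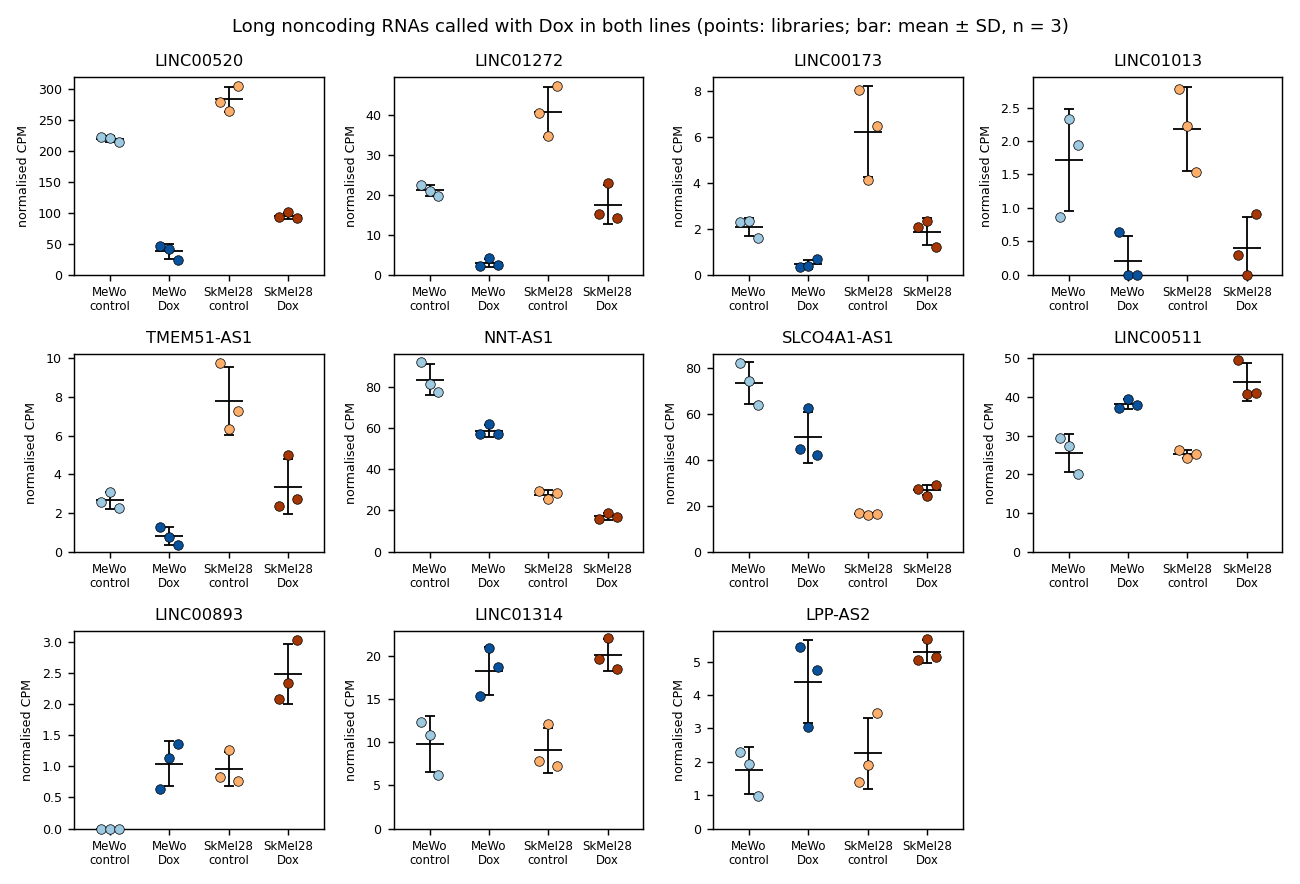
Normalised CPM of the 11 genes called with Dox in both lines, 1 panel per gene and 1 point per library, with mean ± SD (n = 3) per group. LINC00520 to NNT-AS1 are lower with Dox in both lines, LINC00511 to LPP-AS2 are higher in both, and SLCO4A1-AS1 is lower with Dox in MeWo and higher in SkMel28.

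SLCO4A1-AS1 (chromosome 20, 62663019 to 62666724, minus strand) lies within the gene of the organic anion transporter SLCO4A1. It went from 82.4, 74.6 and 63.8 to 45.0, 62.5 and 42.0 in MeWo, and SkMel28 had 17, 15.9 and 16.5 without and 27.3, 24.4 and 29.0 with Dox. The log2 changes were −0.57 (SE 0.17, adjusted p 0.027) and 0.68 (SE 0.17, adjusted p 0.013), and the interaction was −1.24 (SE 0.24, adjusted p 0.0041). With spike-in scaling none of these 3 calls held. SLCO4A1 itself changed by 0.09 and −0.08 and was not called in either line.

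The falls in MeWo beyond the shared genes included several that SkMel28 barely transcribes. LINC01502 (chromosome 9, 135574935 to 135587112, plus strand) stood at 71.4, 66.8 and 59.6 in MeWo control and 22.7, 20.1 and 16.9 in MeWo Dox, and it had 0 reads in all 6 SkMel28 libraries. Its log2 change in MeWo was −1.69 (SE 0.22, adjusted p 4.6e-05), called in every alternative. LINC01436 stood at 15.8, 12.4 and 15.9 in MeWo control and 4.79, 4.55 and 2.03 in Dox, also with 0 reads in SkMel28. It starts 470 bases from the start of RUNX1, a transcription factor gene on the other strand, whose change in MeWo was 0.75 (adjusted p 0.058). In SkMel28, where LINC01436 had 0 reads, RUNX1 was called higher with Dox (log2 1.39, limma adjusted p 0.0019). LINC01606 had 2.30, 3.89 and 2.27 in MeWo control and 0 reads in all other libraries, and was at least 2.72-fold lower with Dox. LINC01050 went from 7.67 ± 1.48 to 1.34 ± 0.857, with no more than 3 reads per library in SkMel28. An interaction for these genes measures a change in MeWo against a line without measurable RNA, and 7 of the 25 members with a called interaction had no SkMel28 group above the floor.

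LINC00681 was read in both lines, while LINC00645 was very weak in SkMel28. LINC00681 stood at 7.20, 8.16 and 8.10 in MeWo control and 1.28, 0.379 and 0.339 in MeWo Dox, which is −2.45 on the log2 scale (SE 0.33, adjusted p 4.6e-05). In SkMel28 it went from 2.49 ± 1.49 to 3.29 ± 1.34 (log2 0.34, adjusted p 0.60). Its interaction of −2.78 (SE 0.46, adjusted p 0.0016) was the lowest among the members. LINC00645 went from 14.7 ± 2.39 to 2.8 ± 0.941 in MeWo, −2.06 on the log2 scale (adjusted p 0.00018), and had means of 0.609 and 0.200 in SkMel28. These SkMel28 means lay under the value of 3 reads, so that its change there could hardly be measured. LINC00589 stood at 3.74, 1.55 and 2.27 in MeWo control and fell to the floor in Dox, at least 2.43-fold lower. LINC00906 dropped to the floor in MeWo Dox, at least 2.32-fold below control, and did not rise above it in SkMel28.

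LINC00518, OIP5-AS1 and MSC-AS1, members that no criterion for naming genes had picked, were singled out after their values were seen. LINC00518 is an RNA used with PRAME in a skin test for melanoma, and it went from 40.6, 47.8 and 48.9 to 24.9, 18.95 and 21.0 in MeWo (log2 −1.05, SE 0.18, adjusted p 0.00047). In SkMel28 it stood at 27.8, 28.6 and 18.8 in control and 32.1, 30.1 and 31.4 in Dox (log2 0.33, adjusted p 0.28). Its interaction of −1.38 (adjusted p 0.0033) held in every alternative. OIP5-AS1, also called cyrano, went from 19.9 ± 5.08 to 30.4 ± 5.91 in MeWo, 0.60 on the log2 scale (adjusted p 0.060). SkMel28 had 24.9 ± 2.97 without and 14.0 ± 1.65 with Dox (log2 −0.79, adjusted p 0.021), with an interaction of 1.38 (adjusted p 0.0095). MSC-AS1 went from 9.40 ± 1.40 to 2.98 ± 0.65 in MeWo (log2 −1.39), and MSC, the gene of a repressor of the basic helix-loop-helix family, fell by 2.15 on the log2 scale.

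EPB41L4A-AS1 was among the 5 strongest members and was called in MeWo and not in SkMel28. It went from 427, 432 and 425 to 294, 263 and 294 in MeWo, log2 −0.59 (SE 0.11, adjusted p 0.00088), and stood at 96.6, 91.4 and 82.0 in the SkMel28 controls, with 84.3, 94.6 and 85.2 under Dox. The MeWo call was lost with spike-in scaling. Its interaction of −0.56 (adjusted p 0.033) was lost in 11 of 21 alternatives.

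The rises in MeWo were led by LINC01239, FRMD6-AS1 and TPT1-AS1. LINC01239 (chromosome 9, 22646200 to 22824213, plus strand) had 0, 0.389 and 0 in MeWo control, at most 1 read per library, and 3.51, 7.20 and 5.42 in MeWo Dox. Dox libraries were thus at least 5.38-fold higher, with a fitted change of 2.47 (SE 0.25, adjusted p 1.9e-06). In SkMel28 it stood at 35.9, 30.8 and 36.0 in control and 30.3, 30.1 and 28.1 in Dox, so that MeWo Dox remained below both SkMel28 groups. The interaction was 2.68 (SE 0.35, adjusted p 0.00021), the highest among the members.

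FRMD6-AS1 went from 1.15, 0.389 and 0.648 to 5.43, 6.44 and 7.11 in MeWo (log2 2.1, SE 0.28, adjusted p 5.0e-05), and SkMel28 had 1.95 ± 0.818 without and 1.64 ± 0.388 with Dox. FRMD6, a gene of the Hippo pathway, rose in both lines, by 1.29 in MeWo and 1.19 in SkMel28. The antisense gene and its partner were thus called together in MeWo, and FRMD6 alone was called in SkMel28.

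TPT1-AS1 starts 61 bases from TPT1, the gene of the abundant protein TCTP, on the other strand. It stood at 15.8, 15.5 and 18.5 in MeWo control and at 26.5, 73.5 and 73.8 in MeWo Dox (log2 1.61, SE 0.33, adjusted p 0.0024). Replicate 1 of the Dox group was much lower than the others, though above all controls, and the call was lost when the MeWo groups were fitted alone. TPT1 stood at 10245.7, 7400.8 and 8536.2 in the same Dox libraries and changed by 0.05 (adjusted p 0.85). In SkMel28 TPT1-AS1 went from 6.03 ± 2.8 to 9.42 ± 0.72 (log2 0.64, adjusted p 0.25). The interaction missed the threshold (adjusted p 0.20).

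TBX2-AS1 overlaps TBX2, a T-box repressor gene of the melanocyte lineage. It went from 27.6, 22.1 and 23.0 to 44.7, 78.1 and 69.1 in MeWo (log2 1.33, SE 0.26, adjusted p 0.0020), and SkMel28 had 5.24 ± 1.24 without and 3.56 ± 1.41 with Dox (log2 −0.49, adjusted p 0.28). TBX2 moved alike, from 44.2 ± 6.68 to 172 ± 53.9 in MeWo (log2 1.89), and SkMel28 had 25.3 ± 2.71 without and 29.5 ± 2.18 with Dox (log2 0.22). The interactions of 1.82 for TBX2-AS1 and 1.68 for TBX2 held in every alternative. BAIAP2-AS1 went from 13.2, 13.2 and 13.3 to 22.0, 29.9 and 34.9 in MeWo (log2 1.05, adjusted p 0.0018), and BAIAP2, whose start is 241 bases away, changed by 0.06.

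LINC01212, or SAMMSON, is an RNA of the melanocyte lineage that supports mitochondrial function in melanoma. It lies 31213 bases beyond the end of MITF on the same strand (chromosome 3, 69999550 to 70518064). It was close to the limit of detection, with 0.288, 0.389 and 0.324 in MeWo control, 1 read in each library, and 1.92, 1.90 and 1.69 in MeWo Dox. In SkMel28 it had 2.23, 0 and 1.53 in control and 0, 0.334 and 0.604 in Dox. It was called in MeWo (log2 1.09, SE 0.36, adjusted p 0.045), and the Dox mean was at least 1.83-fold above the floor of 3 reads. The call was lost in 15 of 21 alternatives, edgeR and DESeq2 among them.

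Among the members that rose in SkMel28 the one with the highest level was LINC00657, or NORAD, an abundant cytoplasmic RNA that binds Pumilio proteins. It stood at 395, 348 and 318 in SkMel28 control and 670.0, 691 and 661 in SkMel28 Dox (log2 0.93, SE 0.18, adjusted p 0.0024), and in MeWo at 240.4, 269 and 294 in control and 329, 159.9 and 226 in Dox (log2 −0.22, adjusted p 0.43). The SkMel28 groups were far apart, while the MeWo Dox libraries lay on either side of the controls. The interaction was −1.16 (SE 0.26, adjusted p 0.012) and was lost with spike-in scaling and without a mean-variance trend. The end of its transcript shares 32.4% of its 31-base words with other transcripts, HCG11 among them.

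LINC00673 went from 25.3, 24.8 and 21.5 to 52.0, 46.8 and 42.6 in SkMel28 (log2 0.95, SE 0.16, adjusted p 0.00072). In MeWo, where it was higher, it went from 64.8 ± 4.29 to 83.9 ± 20.1 (adjusted p 0.16). LINC00326 went from 1.95, 2.86 and 2.30 to 10.4, 9.02 and 11.2 in SkMel28 (log2 1.74, SE 0.27, adjusted p 0.00040) and was at the floor in both MeWo groups. It was the largest called rise among the members in SkMel28.

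Among the genes that fell in SkMel28 and were not called in MeWo, LINC01366 went from 7.80, 7.93 and 7.66 to 1.78, 1.34 and 3.02 (log2 −1.57, SE 0.35, adjusted p 0.0067), and in MeWo from 2.51 ± 1.59 to 2.27 ± 0.985. LINC00282, annotated as the coding gene TMEM272, went from 12 ± 2.46 to 3.86 ± 1.15 (log2 −1.43, adjusted p 0.0089). ZFPM2-AS1, antisense to the gene of a GATA cofactor, went from 3.75 ± 0.774 to 0.921 ± 0.26 (log2 −1.30, adjusted p 0.0028). LINC01537 dropped to the floor with Dox, at least 2.39-fold below its control level. LURAP1L-AS1, whose span covers the pigment enzyme gene TYRP1 on the other strand, went from 2.55 ± 0.889 to 0.619 ± 0.595 (log2 −1.18, adjusted p 0.021). That call was lost with edgeR and DESeq2.

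**Figure D4:**
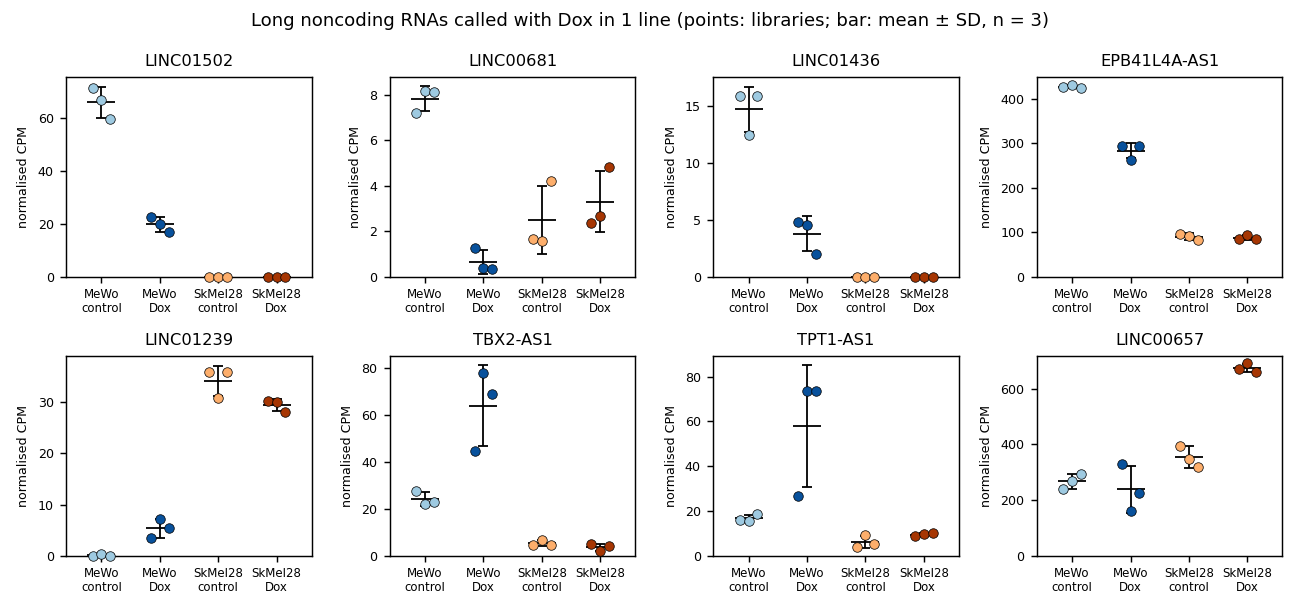
Normalised CPM of 8 genes called with Dox in a single line, 1 panel per gene and 1 point per library, with mean ± SD (n = 3) per group. LINC01502 and LINC01436 are at 0 in all SkMel28 libraries, MeWo Dox replicate 1 (left point) is lowest of its group for TBX2-AS1 and TPT1-AS1, and LINC00657 is higher with Dox in SkMel28.

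A test of the difference between the lines' responses called 25 of the 381 genes, 9 with a more positive and 16 with a more negative change in MeWo. That is 6.56%, beside 7.09% of all listed genes (3.71% more positive and 3.38% more negative). Of the LINC genes 3 were more positive and 14 more negative, and of the antisense genes 6 and 2. With spike-in scaling, which moved the median interaction of all genes from −0.021 to 0.296, the members' split was 20 more positive and 9 more negative. Without MeWo Dox replicate 1 the count rose to 50, with 22 more positive and 28 more negative.

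Antisense genes and their partners were compared for the 206 antisense genes whose partner is listed. In MeWo 18 of the antisense genes and 38 of the partners were called, and 8 pairs had both called, where 16.7% of all listed genes were called. All 8 pairs moved in the same direction. TMEM51, NNT and MSC fell with their antisense gene, and FRMD6, NR2F2, TBX2, NIPBL and PRR7 rose with theirs. Of these calls in MeWo, that of TMEM51 was lost in 17 of 22 alternatives, that of PRR7-AS1 in 16, edgeR and DESeq2 among them, and that of PRR7 in 12. In SkMel28, where the background was 10.9%, 13 antisense genes and 22 partners were called, and both members of the pairs TMEM51 and LPP were. The other 10 antisense genes called in MeWo and 11 in SkMel28 had a partner that was not called. Across the 206 pairs the changes of antisense gene and partner had a correlation of 0.286 in MeWo and 0.283 in SkMel28, which describes pairs of 1 table and not independent replicates. Of the pairs 150 overlap on opposite strands (6 of the 8 called together in MeWo), where the strand of counting was not tested.

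The 138 genes that start within 1000 bases of an opposite-strand start were compared with that neighbour in the same way. In MeWo 11 of them were called, 8 higher and 3 lower (7.97%, beside 16.7% of all listed genes), and 3 had a called neighbour, which moved the same way. These were CPB2-AS1 with ZC3H13, NIPBL-AS1 with NIPBL and NNT-AS1 with NNT. For TPT1-AS1, BAIAP2-AS1 and MAFG-AS1 the neighbour changed by 0.05, 0.06 and 0.03 and was not called. The MeWo call of MAFG-AS1 was lost in 11 of 22 alternatives, the groups fitted alone among them. In SkMel28 8 were called (5.80%, beside 10.9%) and 1 had a called neighbour, LPP.

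The lines differed at far more of these genes than Dox changed. Without Dox 194 of the 381 genes differed between SkMel28 and MeWo (50.9%, beside 51.4% of all listed genes), 98 higher in SkMel28 and 96 higher in MeWo (26.6% and 24.8% of all listed genes). With Dox 176 did (46.2%, beside 53.6%), 103 higher in SkMel28 and 73 higher in MeWo (28.0% and 25.6% of all listed genes). The comparisons share no library. In 134 genes, 35.2% beside 36.5% of all listed genes, the difference was called in both and had the same direction, 74 higher in SkMel28 and 60 higher in MeWo. In 3 it was called in both with opposite directions.

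LINC00504 had the largest difference between the lines. This gene (chromosome 4, 14470465 to 14888169, minus strand) stood at 4.61, 8.16 and 7.13 in MeWo control, 3.51, 7.58 and 1.35 in MeWo Dox, 517, 563 and 538 in SkMel28 control and 573, 569 and 575 in SkMel28 Dox. All SkMel28 libraries lay far above all MeWo libraries, and it was not called with Dox in either line (log2 −0.73, adjusted p 0.11, and 0.09, adjusted p 0.91). The log2 difference between the lines was 6.18 (SE 0.30, adjusted p 2.8e-11) without Dox and 6.99 (SE 0.30, adjusted p 5.9e-12) with Dox. In SkMel28 it was the strongest LINC gene after LINC00657 with Dox, and the strongest without. Between genes this compares reads at transcript ends and not amounts per length. Of the terminal 31-base words of LINC00504, 20.1% also occur in transcripts of other genes, and the assignment of its reads is uncertain to that extent.

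A gene was taken as restricted to a line where all 6 libraries of that line held more than 3 reads and no library of the other did. By this rule 8 genes were restricted to MeWo (2.1%, beside 1.01% of all listed genes) and 15 to SkMel28 (3.94%, beside 1.96%). Such genes passed the filter of the deposited table through the line where they are high. The members are also weaker than the listed genes as a whole, and these shares were not matched for level. The 8 were ELFN1-AS1, EPHA5-AS1, LINC00649, LINC01198, LINC01270, LINC01436, LINC01502 and LINC01518. LINC01502 was at least 67.4-fold lower in SkMel28 than in MeWo control, and at least 21.3-fold lower with Dox. ELFN1-AS1, an RNA known from colon cancer, went from 15.7 ± 4.24 to 11.8 ± 2.02 in MeWo, without a call, and was at least 16-fold lower in SkMel28 control. LINC01198 stood at 8.35, 9.71 and 13.0 in MeWo control and 36.1, 11.0 and 21.0 in MeWo Dox, a wide spread in which Dox was not called (adjusted p 0.080). Other transcripts hold 28% of the terminal 31-base words of LINC01198. Of the 8, LINC01270, LINC01436 and LINC01502 were called lower with Dox.

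The 15 genes restricted to SkMel28 were FLVCR1-AS1, GNAS-AS1, HAS2-AS1, HOXB-AS1, LEF1-AS1, LINC00326, LINC00648, LINC01010, LINC01125, LINC01569, PSMG3-AS1, PYCARD-AS1, RAET1E-AS1, RBMS3-AS3 and TRPM2-AS. LEF1-AS1 stood at 14.5, 14.9 and 11.9 in SkMel28 control and was at least 13.8-fold higher than in MeWo control. LEF1, the Wnt-responsive transcription factor gene that it overlaps, was higher in SkMel28 by only 0.67 on the log2 scale and had 43.5 ± 5.29 in MeWo control. HAS2-AS1 was at least 8.19-fold higher in SkMel28 control, whereas HAS2, a hyaluronan synthase gene, had 19.3 ± 1.01 in MeWo and 19.5 ± 3.77 in SkMel28 control. With Dox HAS2 fell in both lines (log2 −2.96 and −1.32), and HAS2-AS1, measurable only in SkMel28, changed by −0.20 there (adjusted p 0.70). GNAS-AS1, from an imprinted locus, was at least 7.70-fold higher in SkMel28 control, and GNAS was higher there by 2.0 on the log2 scale. HAS2-AS1 was thus above the floor in SkMel28 alone, while the means of HAS2 without Dox were within 1 SD of each other.

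Other large differences lay above the floor in both lines. LINC00674, annotated as a transcribed pseudogene, had 134 ± 7.51 in MeWo control and 16.2 ± 3.27 in SkMel28 control (log2 −2.99), and 76.2% of its terminal 31-base words occur in other transcripts. TNRC6C-AS1 had 22.8 ± 5.16 and 1.26 ± 1.25, and its partner TNRC6C 25.1 ± 4.22 and 4.55 ± 2.06. The SkMel28 mean of TNRC6C-AS1 lay near the floor of 3 reads (a value of at most 1.17), so that its fold is uncertain. NUP50-AS1 had 4.47 ± 1.92 and 23.6 ± 6.29, and NUP50, a nuclear pore gene, 31.9 ± 2.67 and 122.9 ± 13.0. In these pairs the partner differed between the lines in the same direction. Across the 206 pairs, 92 antisense genes and 113 partners were called between the control groups, where 51.4% of all listed genes were called. In 51 pairs both genes were called, 44 of them in the same direction and 7 in opposite directions. Whether pairs were called together more often than unrelated genes was not tested.

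**Figure D5:**
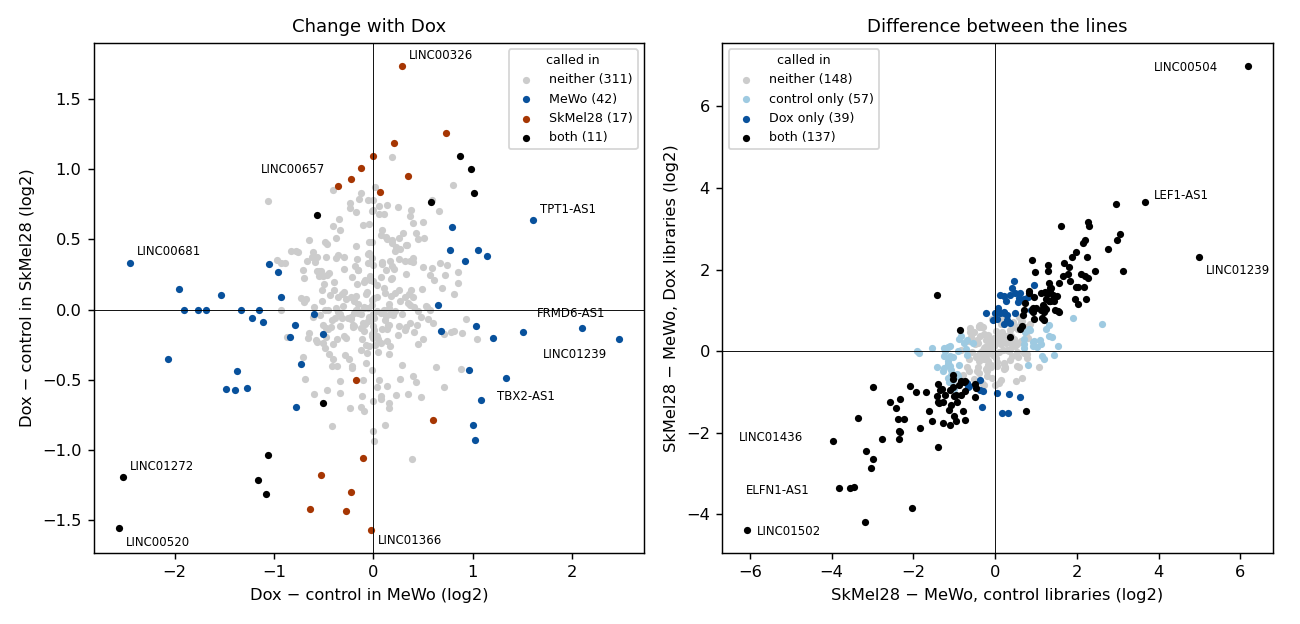
Left, change with Dox in SkMel28 against that in MeWo (log2) for the 381 genes, coloured by the line in which they were called. Right, difference between SkMel28 and MeWo in Dox libraries against that in control libraries (log2). Most genes on the left lie near 0 in both lines, and 311 were called in neither (of all listed genes 16.7% were called in MeWo and 10.9% in SkMel28). On the right 137 genes were called in both comparisons and lie mainly along the diagonal.

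A list of 8 members, LINC genes since renamed as small-protein genes or as known RNAs, was looked at as a group. It does not hold every renamed member, and LINC01272, LINC01314 and LINC00282, described above, stand outside it. Of the 8, 2 were called with Dox in MeWo (25%, beside 16.7% of all listed genes), LINC00116 (now MTLN, a mitochondrial micropeptide gene), which went from 55.8 ± 1.24 to 39.7 ± 9.05 (log2 −0.51, adjusted p 0.031, lost in 7 of 22 alternatives), and LINC01212. In SkMel28 1 of the 8 was called, LINC00657 (12.5%, beside 10.9%). LINC01420 (NBDY), LINC00998 (SMIM30), LINC00493 (SMIM26), LINC00094 (BRD3OS) and LINC00152 (CYTOR) were not called with Dox in either line. LINC00152 had 86.2 ± 2.87 in MeWo control and 111 ± 17.1 in SkMel28 control, and 60.1% of its terminal 31-base words also occur in other transcripts, chiefly of its copy MIR4435-2HG.

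For comparison, 53 other listed genes were picked by symbol and not by annotation. Symbols taken were SNHG plus digits, MIR...HG, endings in -IT1, -IT2, -OT1 or -DT, and a fixed list of known long noncoding RNAs. These genes gave 9 calls with Dox in MeWo, 2 of them higher and 7 lower (16.98%, beside 16.7% of all listed genes). In SkMel28 they gave 3 calls, 2 higher and 1 lower (5.66%, beside 10.9%). Between the control groups 30 of the 53 differed (56.6%, beside 51.4%), 5 higher in SkMel28 and 25 higher in MeWo. Of the LINC and antisense genes 98 and 96 were, as given above.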

How the data were processed

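Total RNA of 12 cultures was sequenced from 3′ ends with the QuantSeq Forward kit. The deposited values are a signal that the authors normalised with edgeR, reads per gene over an effective library size times 1000000. Per the submitters' processing notes FastQC 0.11.7, cutadapt 2.8 and STAR 2.5.1b were used with hg38. The counting tool, its annotation, its strand and its treatment of multiple matches are not given in the sources used here. Divided by the value of 1 read, 100% of the values per library came out whole (tolerance 0.001 reads), so that whole reads could be recovered. All 381 members reached a value of 1 in 3 or more libraries, which is the filter of the table.

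Values were tested as log2(value + 1), which understates changes of weak genes, with limma 3.58.1 (lmFit, eBayes with trend, R 4.3.3) over 12 libraries and 4 group means, 2-sided, with Benjamini-Hochberg adjustment over 12616 genes. A total of 67 spike-ins were left out. The test was tried on simulated data in which only genes stronger than most members were changed. Recovery of changes in weak genes was thus not checked. A group with 3 reads or fewer in each library (a value of at most 1.17) was at the floor, and folds against it are bounds against 3 reads per library, for counting error only. Alternatives were edgeR 4.0.16 and DESeq2 1.42.0 on recovered reads, upper-quartile and spike-in scaling, pseudocounts of 0.1 and 5, a stricter filter (5 in 3 libraries), no trend, a replicate block, groups fitted alone, and leaving out each library. The members and lists were chosen with earlier results of these data known. Named were MITF, the 10 largest called rises and falls per line, all members called in both lines, the 5 highest and 5 lowest called interactions, the 10 largest line differences in each direction at a group mean of at least 5, the 8 members with the highest mean, renamed LINC genes, and sense partners. Symbols were matched to GENCODE 44, directly (279) or by RefSeq synonym (82), leaving 7 with several loci and 13 unmatched. Promoters are RefSeq's.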

Additional observations from a re-analysis of the deposited data

Results flagged for a closer look

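Members for which the change with Dox differed between the lines, by the limma interaction (MeWo change minus SkMel28 change, log2), were taken up for a closer look. The change was more negative in MeWo for LINC00681 (−2.78), LINC01050 (−2.10), LINC01606 (−1.91), LINC01436 (−1.76), LINC00645 (−1.71), LINC01502 (−1.69), LINC00906 (−1.64), LINC00326 (−1.45), LINC01272 (−1.33), SLCO4A1-AS1 (−1.24), LINC00657 (−1.16), LINC00520 (−1.0) and EPB41L4A-AS1 (−0.56). It was more positive in MeWo for LINC01239 (2.68), FRMD6-AS1 (2.23), PRR7-AS1 (1.95), CPB2-AS1 (1.83), TBX2-AS1 (1.82), LINC01212 (1.73) and LINC00462 (1.67).

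LINC01050, LINC01606, LINC01436, LINC01502, LINC00906 and LINC00462 did not exceed the floor in SkMel28, and LINC00326 was at the floor in both MeWo groups, so that 1 side of the comparison could not be measured. The SkMel28 means of LINC00645 also lay under the value of 3 reads. PRR7-AS1 went from 0.744 ± 1.05 to 2.21 ± 0.547 in MeWo, and SkMel28 had 8.51 ± 0.882 without and 4.08 ± 1.2 with Dox. CPB2-AS1 went from 3.90 ± 0.411 to 8.91 ± 1.68 in MeWo, and SkMel28 had 5.19 ± 1.69 without and 2.5 ± 0.884 with Dox (adjusted p 0.072). The interactions of LINC01239, FRMD6-AS1, LINC00681, TBX2-AS1 and CPB2-AS1 were called in each alternative that gave a value. Those of LINC01212 (13 of 19), LINC00326 (11 of 20), EPB41L4A-AS1 (11 of 21), LINC00906 (10 of 19), LINC00645 (9 of 21) and PRR7-AS1 (9 of 20) were lost in the number of alternatives given.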

How the results depend on the processing

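Of the members called, edgeR kept 44 of 53 in MeWo, 20 of 28 in SkMel28, 14 of 25 interactions, 182 of 194 line differences without Dox and 167 of 176 with Dox. DESeq2 kept 37, 17, 12, 165 and 158. Calls kept in every alternative numbered 16, 8, 5, 138 and 134. With DESeq2 18 members were called in SkMel28 and 12 interactions, with edgeR 14 interactions, and with a pseudocount of 0.1 16 interactions. With the groups fitted alone 30 were called in MeWo. The stricter filter left 181 members, of which 115 differed between the lines without Dox and 113 with Dox. Leaving out 1 library at a time, MeWo calls ranged from 30 (without Dox replicate 3) to 71 (without Dox replicate 1), with 34 and 35 without control replicate 2 or 3. SkMel28 calls ranged from 15 (without Dox replicate 2) to 32, with 18 without Dox replicate 1, and interactions from 15 (without MeWo control replicate 2) to 50 (without MeWo Dox replicate 1), with 16 without SkMel28 Dox replicate 2 or control replicate 3. The cause of these moves was not tested. The members' median change moved with upper-quartile scaling to −0.049 in MeWo, −0.13 for the interaction and 0.073 between the control groups. With spike-in scaling it moved to 0.11 in MeWo, −0.022 in SkMel28, 0.11 for the interaction, 0.18 between the control groups and 0.020 between the Dox groups, where the medians of all genes were 0.22, −0.079, 0.30, 0.13 and −0.16. Restriction to a line at a floor of 1 or 10 reads gave 8 and 8 genes for MeWo and 11 and 14 for SkMel28. Equal replicate numbers did not pair the libraries (correlations of deviations −0.305 to 0.047 in MeWo and −0.105 to 0.289 in SkMel28), and a replicate block gave 51, 22, 23, 192 and 177 calls. The median level of the members was 3.01, about 10 reads per library, and groups with 3 reads or fewer per library allow only bounds at this depth.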
